A study of Mus musculus with 9 samples.

Results

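The report covers 9 genes of the cyclic AMP pathway that holds mouse oocytes in meiotic arrest, and of the kinase and phosphatase that act on CDK1 at its end. They are Gpr3, Gpr12, Adcy3, Adcy9, Pde3a, Pde4d, Prkar1a, Wee2 and Cdc25b, and they were taken by their gene symbol from tables that list 52025 genes. All 9 were found. RNA was sequenced from ovaries of Kunming mice on postnatal day (PD) 14, 15 and 16, the days around the initial formation of the follicular antrum, with 3 libraries for each day and no treatment. The labels give the tissue as ovary but the source as granulosa cells, whereas the study's methods describe ovaries. A legend of the study gives 3 independent ovaries, and its sequencing methods do not state independence. The labels do not say which animals the libraries came from.

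A fully grown oocyte stays in prophase of the first meiotic division while its cyclic AMP is high. Gs-coupled receptors in the oocyte membrane drive adenylyl cyclases, cyclic AMP activates protein kinase A, and the kinase keeps CDK1 inactive by favouring the inhibitory kinase WEE2 and restraining the phosphatase CDC25B. Cyclic GMP made in granulosa cells enters the oocyte through gap junctions and blocks the phosphodiesterase PDE3A, which would otherwise break cyclic AMP down. The study first saw follicular antra on PD15. How far the oocytes in these libraries had grown was not measured, so the levels below do not show whether this arrest was at work.

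Levels are given in FPKM, fragments scaled by transcript length and by library depth, with the mean ± SD of 3 libraries. The tables held no counts, and the depth read from the FPKM of weakly expressed genes was 20.4 to 28.7 M fragments per library. A gene was tested when the mean of any day exceeded 1 FPKM. This was met by 15495 genes and by 7 of the 9 described here, while Gpr12 and Pde4d were too low. Differences between days are log2 changes of FPKM + 1 from limma with their standard error (SE), which understate the change of low genes, and adjusted p-values follow Benjamini and Hochberg over all 15495 genes. A gene was called changed at an adjusted p under 0.05.

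The libraries held RNA of oocytes as well as of granulosa cells. All 18 oocyte markers had a mean FPKM above 1, as did all 10 granulosa markers, all 8 theca markers and all 6 stroma markers, so the source label does not describe a pure granulosa cell sample. The oocyte egg coat gene Zp3 was at 349 ± 38.5 FPKM on PD14, 401 ± 22.6 on PD15 and 276 ± 12.6 on PD16. The summed FPKM of the oocyte markers was 1767 to 2193 on PD14, 2261 to 2361 on PD15 and 1627 to 1777 on PD16. All 18 had a lower fitted level on PD16 than on PD15, and 2 of them, Zp2 and Nlrp5, were called, where 0.729% of all tested genes were called. From PD14 to PD16 the markers did not all go one way, since 14 were lower and 4 higher, none was called lower and Bmp15, an oocyte growth factor gene, was called higher (49.7 ± 3.03 to 65.4 ± 4.27 FPKM). From PD14 to PD15, 15 were higher and 3 lower, and Nlrp5 was called higher. The summed granulosa markers overlapped between the days, with 3052 to 3716, 2891 to 3307 and 3020 to 3576, although from PD14 to PD16 Amh was called higher and Cyp19a1 lower. The summed endothelial markers were at 52.5 to 55.5 FPKM on PD14, above 49.2 to 51.6 on PD15 and 46.7 to 49.3 on PD16, with all 4 lower than on PD14 on both days and none called. All 6 stroma markers had a lower fitted level on PD16 than on PD14, with none called and sums of 538 to 630 on PD14, 464 to 535 on PD15 and 536 to 562 on PD16. The summed theca markers overlapped, with 1623 to 2245, 1196 to 1770 and 1229 to 1637, and most of each sum came from Hsd3b1. Their mean log2(FPKM + 1), which weights the 8 genes equally, was 4.90 to 4.91 on PD14, 4.63 to 4.66 on PD15 and 4.53 to 4.95 on PD16, so PD14 and PD15 were separate, with 6 of 8 lower on PD15 and none called. Markers of red blood cells had a lower sum on PD15 (45.6 to 62.9 FPKM) than on PD14 (105 to 140), with all 4 lower and Hba-a1 called, and were at 60.4 to 116 on PD16. All 4 smooth muscle markers had a higher fitted level on PD16 than on PD14, with Cnn1 called and sums of 275 to 315 on PD14, 264 to 345 on PD15 and 302 to 402 on PD16. The 4 oviduct markers were below 1 FPKM and not tested, and their sum was 1.38 to 1.51 FPKM on PD14, above 0.648 to 1.04 on PD15 and 0.371 to 1.08 on PD16. The 4 macrophage markers overlapped, with sums of 10.5 to 12.3, 11.3 to 13.3 and 11.6 to 13.2 FPKM. The part of these cell types in the changes of the 9 genes was not tested. In whole-tissue RNA, fewer cells of a type and less RNA per cell cannot be told apart.

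Prkar1a was the most abundant of the 9 transcripts, with a mean of 106 FPKM over the 9 libraries, 8.87 times that of Wee2. Wee2 (12 FPKM), Cdc25b (10.8) and Adcy9 (8.9) followed, then Adcy3 (5.16), Pde3a (3.71) and Gpr3 (2.83). Pde4d (0.393) and Gpr12 (0.0299) were the lowest. The ranges over the 9 libraries overlapped between Wee2 and Cdc25b, between Cdc25b and Adcy9, between Adcy3 and Pde3a, and between Pde3a and Gpr3. All other neighbours in this order were separate in every library.

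**Figure D1:**
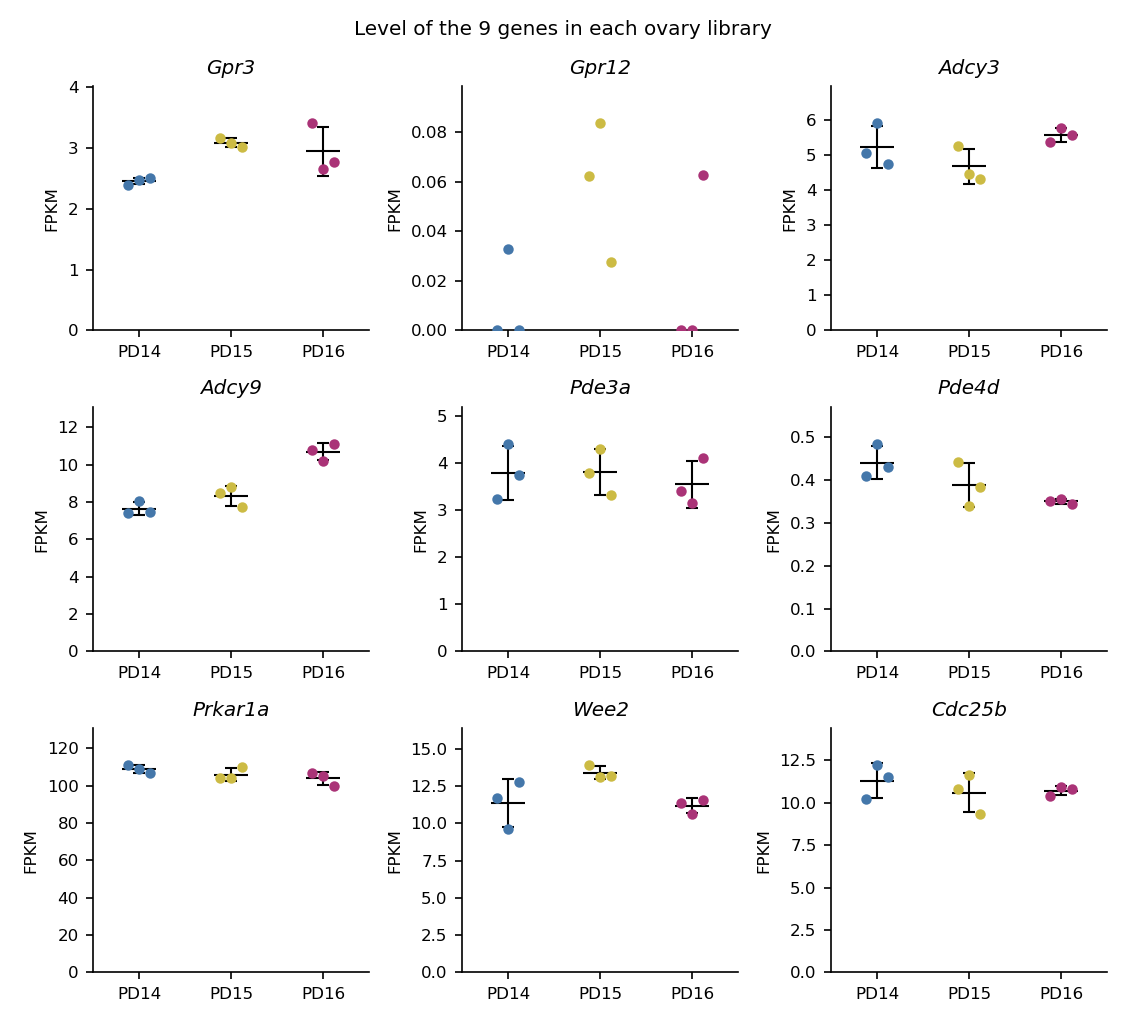
FPKM of the 9 genes (vertical axes, each from 0) on PD14, PD15 and PD16. Points are libraries and black marks the mean ± SD of 3, which is not drawn for Gpr12 because it is listed at 0 in some libraries. The 3 PD16 libraries of Adcy9, at 10.2 to 11.1, lie above the other 6.

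Adcy9 was the only one of the 7 tested genes that was called changed in any comparison. It rose from PD14 to PD16, where 4.25% of all tested genes were called, 2.36% as higher and 1.89% as lower. Between PD15 and PD14 none of the 7 was called, beside 0.678% of all tested genes (0.336% higher, 0.342% lower). Between PD16 and PD15 none was called either, beside 0.729% (0.432% higher, 0.297% lower). Gpr3 and Wee2, 2 of the 7, had separate libraries on PD15 and PD14, as had 20.6% of all tested genes. For PD16 and PD14 this held for 3 of the 7 (Gpr3, Adcy9 and Prkar1a) and 28.5% of all tested genes, and for PD16 and PD15 for 3 (Adcy3, Adcy9 and Wee2) and 19.6%. At an unadjusted p under 0.05 in limma, Gpr3 and Wee2 differed between PD15 and PD14 (14.7% of all genes), Gpr3 and Adcy9 between PD16 and PD14 (22.8%), and Adcy3, Adcy9 and Wee2 between PD16 and PD15 (14.1%).

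The 250 bases before the RefSeq start are printed for 3 genes, namely Adcy9 as the gene that changed, and Gpr3 and Wee2 as the receptor and the kinase best known from the oocyte. They are from build GRCm38.p6, 5′ to 3′ on the gene's strand, at chr16:4420499-4420748 (minus strand) for Adcy9, chr4:133212537-133212786 (minus strand) for Gpr3 and chr6:40442613-40442862 (plus strand) for Wee2, where the window lies in an intron of the longer GENCODE gene model. Capitals mark the short cyclic AMP response element TGACG or its reverse complement CGTCA in Adcy9 and Gpr3, and in Wee2 the E-box CANNTG and the homeobox motif TAATTA.
Adcy9: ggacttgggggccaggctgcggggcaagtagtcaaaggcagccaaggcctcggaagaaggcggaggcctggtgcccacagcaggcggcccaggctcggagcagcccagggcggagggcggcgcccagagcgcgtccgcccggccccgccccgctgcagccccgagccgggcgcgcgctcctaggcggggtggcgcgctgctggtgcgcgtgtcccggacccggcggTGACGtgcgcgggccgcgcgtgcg
Gpr3: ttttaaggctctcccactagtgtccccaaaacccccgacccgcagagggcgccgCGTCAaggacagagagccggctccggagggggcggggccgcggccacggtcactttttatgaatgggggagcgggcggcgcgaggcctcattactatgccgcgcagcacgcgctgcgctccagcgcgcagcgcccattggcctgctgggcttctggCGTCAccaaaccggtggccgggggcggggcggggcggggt
Wee2: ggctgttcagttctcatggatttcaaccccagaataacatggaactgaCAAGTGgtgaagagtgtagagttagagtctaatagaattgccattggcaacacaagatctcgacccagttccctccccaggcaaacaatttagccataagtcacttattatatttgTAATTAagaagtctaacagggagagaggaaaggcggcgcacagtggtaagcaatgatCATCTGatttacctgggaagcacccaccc
Both strands were searched. TGACG stood 24 bases before the start of Adcy9, and CGTCA 196 and 40 bases before that of Gpr3. Such a match was present in 17.7% of 32817 RefSeq windows of this length. The letters G and C made up 78.8% of the Adcy9 window and 70.8% of the Gpr3 window. The share of 17.7% is over all windows and not over windows with a like content of G and C. The full element TGACGTCA, which contains the short one, was in 1.55% of windows and in none of the 3. Among the windows of the other genes, it was in 1 of the 6 of Prkar1a, at chr11:109650699-109650948, which overlaps an exon. The short element was in 3 of the 6 of Prkar1a and in the window of Cdc25b. No window of Pde3a was among those searched. In Wee2, CAAGTG stood at 202 bases, CATCTG at 29 and TAATTA at 86. An E-box was present in 66.2% of windows, and the homeobox motif, searched as TAATTA and with TAATTG and its reverse complement, in 11.3%. A match describes the letters of the window and not a binding site.

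Gpr3, a constitutively active receptor that couples to Gs, lies at chr4:133209340-133212536 (minus strand, mm10). It was at 2.4, 2.47 and 2.51 FPKM on PD14, at 3.16, 3.09 and 3.02 on PD15 and at 3.41, 2.66 and 2.77 on PD16. Every PD15 and PD16 library was above every PD14 library. Libraries of PD15 lay wholly above those of PD14 for 10.4% of all tested genes, and those of PD16 wholly above PD14 for 15%. The mean was 25.5% higher on PD15 than on PD14 (log2 change 0.24, SE 0.081) and 19.7% higher on PD16 (0.185, SE 0.081). Neither was called, with adjusted p-values of 0.215 and 0.216 by limma. These levels rested on 140 to 237 fragments per library, and 7.46% of the exon bases of Gpr3 are shared with Cd164l2 on the opposite strand.

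Gpr12, a related receptor, lies at chr5:146582398-146585239 (minus strand, mm10). It gave 0, 2 and 0 fragments on PD14, 4, 5 and 2 on PD15, and 0, 0 and 4 on PD16, which is 17 in all. A count of 0 allows up to 3 fragments, or 0.0416 to 0.0586 FPKM in these libraries, for counting error only. The libraries with 4 or 5 fragments, 2 on PD15 and 1 on PD16, were above their own limit and the other 6 were below it, and no fold change is given. Gpr6, the third receptor of this group, was listed at 0 in every library.

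Adcy9, a widely expressed membrane adenylyl cyclase, lies at chr16:4287529-4420498 (minus strand, mm10), and its exons overlap no other gene. It was at 7.42, 8.07 and 7.47 FPKM on PD14, at 8.47, 8.8 and 7.73 on PD15 and at 10.8, 10.2 and 11.1 on PD16. The PD16 libraries were above all others, while those of PD14 and PD15 overlapped. The mean rose by 39.8% from PD14 (7.65 ± 0.36) to PD16 (10.7 ± 0.487), a log2 change of 0.435 (SE 0.064, limma adjusted p = 0.0129). From PD15 (8.34 ± 0.551) to PD16 it was 28.4% higher (0.327, SE 0.064), and the adjusted p of 0.0593 missed the threshold. PD15 and PD14 differed by 0.109 (SE 0.064, adjusted p = 0.463). The limma F test among the 3 days gave an adjusted p of 0.0224, where 3.03% of all genes were called. This call was lost with no filter on low values (0.0604), with the replicate number as a block (0.0633), and without PD14 replicate 1 (0.0522) or 3 (0.066) or PD16 replicate 1 (0.08) or 3 (0.0587). These levels rested on 791 to 1468 fragments per library. The call between PD16 and PD14 was lost without PD14 replicate 3 (adjusted p = 0.0519) and without PD16 replicate 1 (0.0548), and it was made in 17 of 19 alternative analyses, which gave adjusted p-values of 0.00852 to 0.0548.

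Adcy3, a cyclase described in rodent oocytes, lies at chr12:4133103-4213525 (plus strand, mm10). It was at 5.05, 5.91 and 4.74 FPKM on PD14, at 5.26, 4.45 and 4.33 on PD15 and at 5.37, 5.78 and 5.58 on PD16. The PD16 libraries were above those of PD15, as for 9.85% of all tested genes, and both overlapped PD14. The log2 change from PD15 to PD16 was 0.214 (SE 0.087), and it was not called (limma adjusted p = 0.305). Of its exon bases, 22.1% are shared with Cenpo on the opposite strand, and the library kit does not mark strand, so reads of the 2 genes cannot be told apart there.

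Among the 10 adenylyl cyclases, Adcy7 and Adcy6 had the highest levels, with means of 17.3 and 17.2 FPKM. Adcy9 made up 12.5 ± 0.475% of the summed FPKM of the family on PD14, 13.7 ± 0.63% on PD15 and 15.8 ± 0.954% on PD16. Its share ran from 15.1% to 16.9% on PD16 and from 12% to 14.1% on the other days. Adcy3 held 7.15% to 8.8% in the 9 libraries. Adcy5 was at 8.53 ± 0.306, 8.83 ± 0.192 and 10.2 ± 1.1 FPKM, and its log2 change of 0.227 (SE 0.071) from PD14 to PD16 was not called (limma adjusted p = 0.101). None of the 5 other cyclases tested was called in any comparison.

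**Figure D2:**
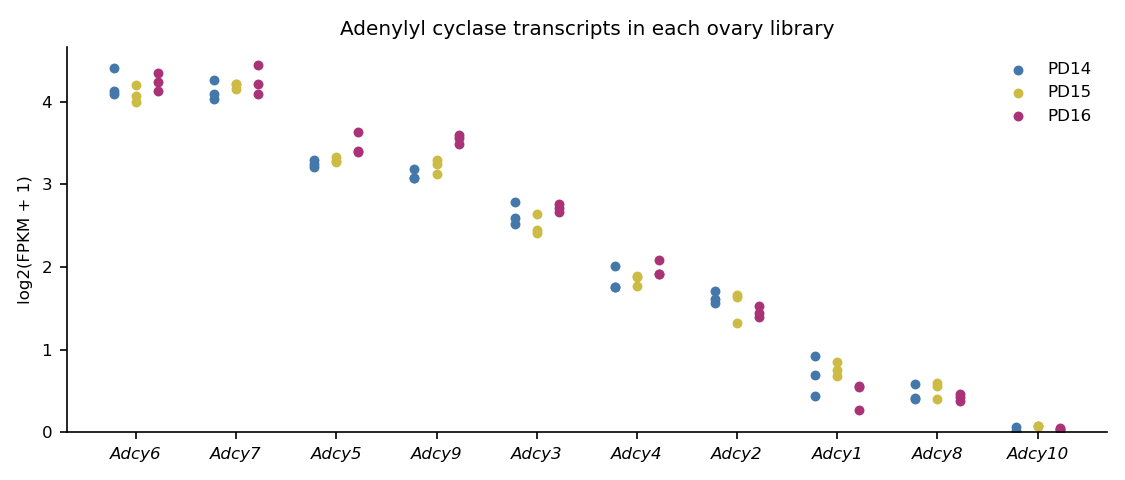
Log2(FPKM + 1) (vertical axis) of the 10 adenylyl cyclase genes (horizontal axis). Each point is a library and colours give the day. The PD16 libraries of Adcy9 lie above those of PD14 and PD15.

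Pde3a, the cyclic GMP-inhibited phosphodiesterase of the oocyte, lies at chr6:141249269-141507448 (plus strand, mm10). It was at 3.24, 4.39 and 3.73 FPKM on PD14, at 3.78, 4.29 and 3.32 on PD15 and at 3.39, 3.14 and 4.09 on PD16. The libraries of the 3 days overlapped. The log2 change from PD14 to PD16 was -0.07, with a 95% interval of -0.34 to 0.19 (limma adjusted p = 0.747). Pde3a held 62.1% to 73.8% of the summed FPKM of Pde3a and Pde3b. With Gm28523 on the opposite strand it shares 5.82% of its exon bases.

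Pde4d, a phosphodiesterase known from granulosa cells, lies at chr13:108449948-109953461 (plus strand, mm10). It was at 0.408, 0.483 and 0.429 FPKM on PD14, at 0.442, 0.339 and 0.383 on PD15 and at 0.35, 0.356 and 0.344 on PD16, from 97 to 140 fragments. The PD16 libraries were below those of PD14, as for 13.5% of the tested genes, which do not include Pde4d. They overlapped those of PD15. When every gene with a value above 0 was tested, the log2 change from PD14 to PD16 was -0.09 (SE 0.051) and was not called (limma adjusted p = 0.476).

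Prkar1a, a regulatory subunit that holds protein kinase A inactive until cyclic AMP binds, lies at chr11:109649405-109669656 (plus strand, mm10). It was at 111, 109 and 107 FPKM on PD14, at 104, 104 and 110 on PD15 and at 107, 105 and 100 on PD16. The means fell within a narrow span, 109 ± 1.59, 106 ± 3.29 and 104 ± 3.53. The PD16 libraries were below those of PD14, although the closest 2 both round to 107, as for 13.5% of all tested genes, by 4.6% of the mean (log2 change -0.07, SE 0.058, limma adjusted p = 0.521). Prkar1a held 27.3% to 35.6% of the summed FPKM of the 4 regulatory subunits, and Prkar2b held 58.9% to 68.7%.

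Wee2, the oocyte kinase that places the inhibitory phosphate on CDK1, lies at chr6:40439088-40466813 (plus strand, mm10). It was at 11.7, 9.64 and 12.8 FPKM on PD14, at 13.9, 13.1 and 13.2 on PD15 and at 11.4, 10.6 and 11.6 on PD16. The PD15 libraries were the highest and overlapped neither of the other days, and PD14 and PD16 overlapped. The mean was 17.8% higher on PD15 than on PD14 (log2 change 0.226, SE 0.089, limma adjusted p = 0.281). It was 16.4% lower on PD16 than on PD15 (-0.24, SE 0.089, adjusted p = 0.258), where the libraries lay wholly lower for 9.73% of all tested genes. Neither was called. The summed oocyte markers also had their highest values on PD15.

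Cdc25b, a phosphatase that removes the inhibitory phosphates from CDK1, lies at chr2:131186949-131198497 (plus strand, mm10). It was at 10.2, 12.2 and 11.5 FPKM on PD14, at 10.8, 11.6 and 9.34 on PD15 and at 10.4, 10.9 and 10.8 on PD16. The libraries of the 3 days overlapped. The log2 change from PD14 to PD16 was -0.07, with a 95% interval of -0.26 to 0.12 (limma adjusted p = 0.677). Cdc25b held 41.1% to 47.8% of the summed FPKM of the 3 CDC25 genes, and Wee2 28.4% to 39.1% of that of Wee1, Wee2 and Pkmyt1. With Spef1 on the opposite strand, Cdc25b shares 2.47% of its exon bases.

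**Figure D3:**
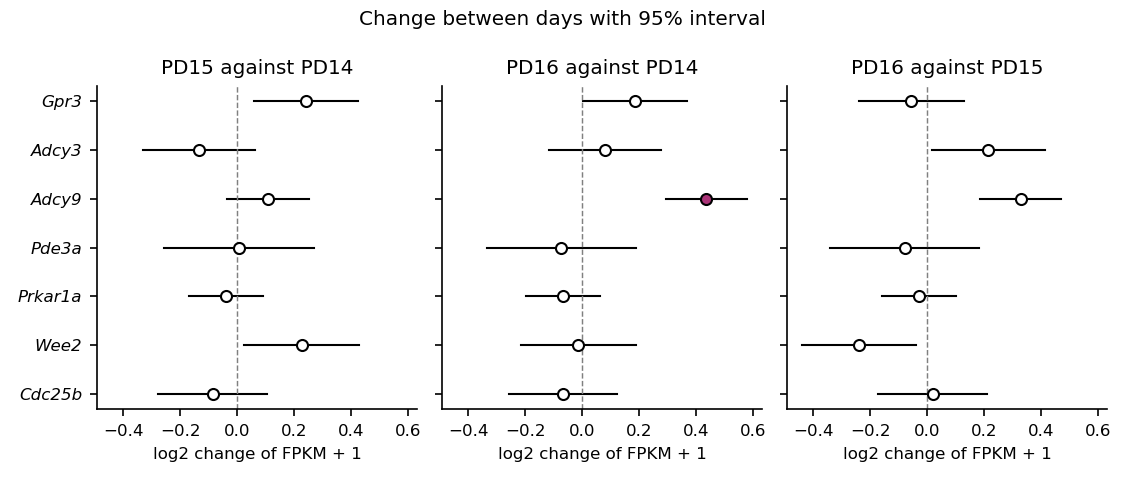
Log2 change of FPKM + 1 (horizontal axes) of the 7 tested genes in the 3 comparisons, with 95% intervals of limma. Filled points have an adjusted p under 0.05. The filled point is Adcy9, PD16 against PD14.

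Because the summed oocyte markers differed between the days, each gene was also set against them, as its log2(FPKM + 1) minus the mean of the 18 markers. The 3 days were compared by an exact permutation test over the 280 groupings of the libraries, whose smallest p is 0.00357, and the 7 p-values are not adjusted. The same marker mean was taken from every gene, so these values hold the markers' own change between the days and do not show a change of the gene itself. Prkar1a, whose FPKM gave an unadjusted F test p of 0.523 in limma, had an exact p of 0.0429 on this scale. Relative to the markers, Adcy9 was at -2.96 ± 0.204 on PD14, -3.02 ± 0.146 on PD15 and -2.34 ± 0.069 on PD16 (exact permutation p = 0.0286). Gpr3 was at -4.28 ± 0.146, -4.21 ± 0.083 and -3.91 ± 0.191 (exact p = 0.0286). The means of all 7 genes were highest on PD16 on this scale. The exact p was 0.0429 for Adcy3, 0.0786 for Wee2, 0.104 for Cdc25b and 0.386 for Pde3a. Wee2 relative to the markers was at -2.45 ± 0.049, -2.39 ± 0.083 and -2.28 ± 0.078. Its PD15 libraries overlapped those of both other days, so no order of the days is read from it. The share of all tested genes with such a p is not given here, so these p-values are not read as calls. Without PD16 replicate 1 the exact p of Adcy9 was 0.05, and it was under 0.05 without any other library. The exact p of Gpr3 was 0.0571 without PD14 replicate 1 or 3, 0.05 and 0.0536 without PD15 replicates 1 and 2, and 0.125 without PD16 replicate 1. That of Prkar1a was 0.0607 without PD14 replicate 1, 0.0821, 0.0786 and 0.0857 without PD15 replicates 1 to 3, and 0.114 and 0.111 without PD16 replicates 1 and 2. That of Adcy3 was 0.075 without PD14 replicate 1, 0.0571, 0.114 and 0.139 without PD15 replicates 1 to 3, and 0.0893, 0.0964 and 0.0607 without PD16 replicates 1 to 3. 

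**Figure D4:**
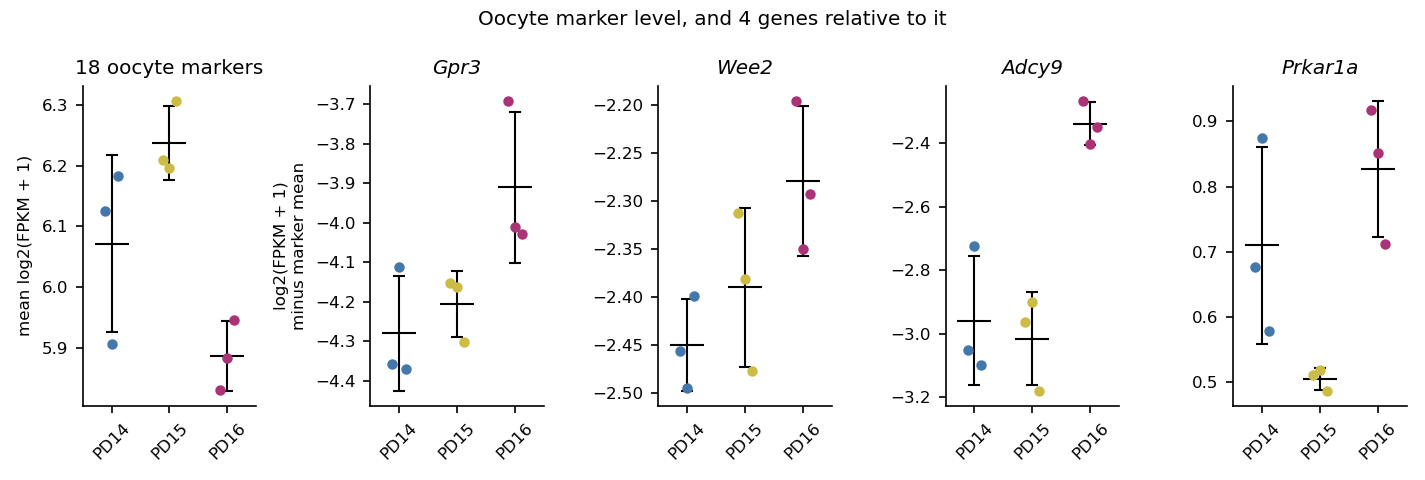
Mean log2(FPKM + 1) of 18 oocyte markers (left), and log2(FPKM + 1) minus that mean for Gpr3, Wee2, Adcy9 and Prkar1a, by day. Points are libraries, with the mean ± SD of 3, and the axes do not start at 0. The marker mean was 5.83 to 5.95 on PD16 and 6.2 to 6.31 on PD15.

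For the 4 genes with the widest range of day means, the 3 tested genes with the most similar course over the 9 libraries were taken by the root-mean-square difference of centred log2(FPKM + 1). For Adcy9 they were Fam53a (0.042), Ip6k3 (0.049) and Esr2 (0.058). The median over all genes was 0.229, and the closest genes lie below it by selection. Ip6k3 was at 0.651, 0.793 and 1.21 FPKM on the 3 days, so it passed the filter through PD16 alone. Esr2, the estrogen receptor beta gene, was at 52, 57.3 and 72.9 FPKM on the 3 days. For Wee2 they were Trim60 (0.047), Ttll11 (0.048) and Dtx2 (0.056), for Gpr3 Mrps10 (0.043), Fam3c (0.05) and Pdss1 (0.051), and for Adcy3 Ehbp1l1 (0.052), Ninl (0.053) and Gm28192 (0.055). The medians over all genes were 0.191, 0.173 and 0.178.

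Of 78 other genes of the pathway, 63 were tested. From PD14 to PD16, 1 rose and 2 fell, 4.76% of the 63 beside 4.25% of all tested genes. At an unadjusted limma p under 0.05 there were 17, which is 27% beside 22.8%. Their median log2 change was 0.05, beside 0.01 over all tested genes. None was called between PD15 and PD14, where 8 had an unadjusted limma p under 0.05 (12.7%, beside 14.7% of all tested genes), or between PD16 and PD15, where 9 did (14.3%, beside 14.1%). The shares of the 63 genes were thus near those of all genes. Pde8a, a cyclic AMP phosphodiesterase and the highest of its family here, was at 16.1, 16.3 and 16.8 FPKM on PD14, at 13.7, 13.6 and 13 on PD15 and at 13.5, 12.9 and 12.3 on PD16. It fell by 0.323 on the log2 scale from PD14 to PD16 (SE 0.053, adjusted p = 0.0177). Its PD15 and PD16 libraries were all below those of PD14, as were those of 10.2% of all tested genes for PD15 and 13.5% for PD16.

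Nppc, which encodes the granulosa peptide that drives cyclic GMP production, was at 29, 21.6 and 30.6 FPKM on PD14, at 18.6, 18.7 and 18.5 on PD15 and at 19.1, 16.9 and 14.6 on PD16. It fell by 0.646 from PD14 to PD16 (SE 0.128, limma adjusted p = 0.0294). Its receptor gene Npr2 was at 22 ± 2.68, 22.7 ± 4.17 and 28.6 ± 1.73 FPKM and was not called (log2 change 0.366 from PD14 to PD16, SE 0.126, adjusted p = 0.127). Map2k1, a kinase of the MOS-MAPK cascade, was at 24.5, 24.3 and 21.8 FPKM on PD14, at 37.6, 34.3 and 29.6 on PD15 and at 34, 29.3 and 37.7 on PD16. It rose by 0.491 (SE 0.107, adjusted p = 0.0384). The calls were made in 16 of 19 alternative analyses for Pde8a, 11 for Nppc and 9 for Map2k1.

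The most abundant gene of each of the other roles was not called in any comparison. From PD14 to PD16 the log2 change was 0.528 (limma adjusted p = 0.054) for Rgs2, a regulator of G protein signalling, and 0.122 (0.467) for Adcy7. It was -0.10 (0.721) for Prkar2b, -0.07 (0.538) for the phosphatase subunit Ppp2r1a and 0.04 (0.856) for the cyclin Ccnb2. The gap junction gene Gja1 had 0.262 (0.221), and Mapk3 had -0.15 (0.204).

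**Figure D5:**
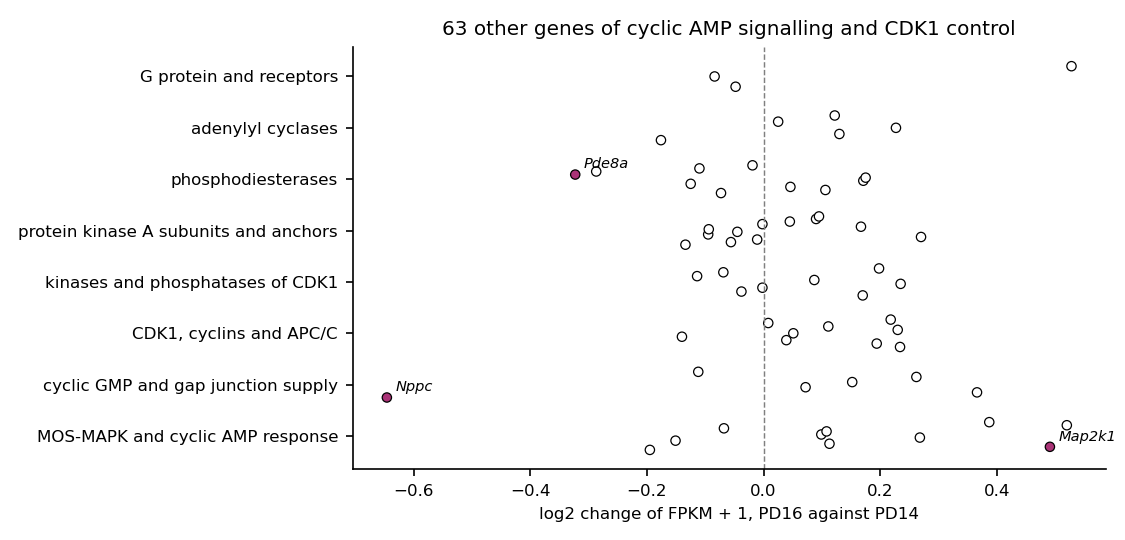
Log2 change of FPKM + 1 from PD14 to PD16 (horizontal axis) of the 63 tested genes of cyclic AMP signalling and CDK1 control, by role (vertical axis). Filled points have a limma adjusted p under 0.05. They are Pde8a and Nppc, which fell, and Map2k1, which rose.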

How the data were processed

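RNA of mouse ovaries on PD14, PD15 and PD16, 3 libraries each, was prepared with the NEBNext Ultra kit. Values are FPKM as the authors deposited them, with 1 table per library and no further scaling. The submitters' processing notes name HISAT2 2.0.5 and mm10, while the counting tool and annotation are not given in the sources used here. Exon lengths and positions were taken from GENCODE M21 (50462 of 52025 genes matched) and promoters from RefSeq. In weakly expressed genes, 95.5% to 96.3% of the FPKM were whole multiples, within 0.05, of the value of 1 fragment, which gave the depth per library.

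Genes whose mean exceeded 1 FPKM on any day were tested on log2(FPKM + 1) with limma 3.58.1 (R 4.3.3), with an intensity trend, all 9 libraries in 1 model and Benjamini-Hochberg adjustment. No count test was made, since the tables hold no counts. Levels relative to the oocyte markers were compared by an exact permutation test (two-sided by construction). The limma fit was also run on simulated data, where it did not recover every changed gene. A gene that was not called is therefore not shown to be unchanged. Alternatives were other pseudocounts, filters, scalings and limma settings, the 2 days compared alone, the replicate number as a block and each library left out in turn. All 9 genes are named, as are pathway genes that were called, the most abundant gene of each role and the genes most like a member. Uncalled genes such as Adcy5, Adcy6, Npr2 and Gpr6 were named outside these rules. Other uncalled genes nearer the threshold from PD14 to PD16, such as Prkar2a (limma adjusted p = 0.0542), were not described. The genes and lists were chosen with earlier results of these data known. Figures were drawn with Matplotlib 3.10.9, and other steps ran in pandas 2.3.3 under Python 3.11.15.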

Additional observations from a re-analysis of the deposited data

How the results depend on the processing

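The count of all genes called between PD15 and PD14 (105) was 29 with no filter on low values, 63 with a mean FPKM above 5, 47 with the libraries of these 2 days alone, and 3 to 92 with 1 library left out. Between PD16 and PD14 (659) it was 172 with no filter, 320 with the 2 days alone and 92 to 660 with 1 library left out. Between PD16 and PD15 (113) it was 24 with no filter and 14 to 125 with 1 library left out. The count of the 7 genes called between PD16 and PD14 was 0 to 1 with 1 library left out, and between PD16 and PD15 it was 1 with a mean FPKM above 5, where Adcy9 had an adjusted p of 0.0449. Among the other pathway genes, 1 was called between PD15 and PD14 after quantile normalization. Between PD16 and PD14, 1 was called with no filter, 5 with a mean FPKM above 5, 1 with the 2 days alone and 0 to 4 with 1 library left out. The adjusted p of the F test for Adcy9 was 0.0604 with no filter and 0.0274 to 0.08 with 1 library left out.

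Relative to the oocyte markers, the exact p with 1 library left out was 0.0143 to 0.125 for Gpr3, 0.0143 to 0.139 for Adcy3, 0.0179 to 0.05 for Adcy9, 0.0357 to 0.193 for Wee2, 0.0286 to 0.275 for Cdc25b and 0.00714 to 0.114 for Prkar1a. It was 0.0643 for Adcy3 with a pseudocount of 0.1, and 0.0357 for Wee2 with Gdf9, Bmp15, Zp1, Zp2 and Zp3 as the markers.

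Changes that were not called turned their sign when 1 library was left out, with log2 changes of -0.079 to 0.095 for Pde3a from PD14 to PD15, -0.159 to 0.015 for Pde3a and -0.119 to 0.067 for Wee2 from PD14 to PD16, and -0.06 to 0.083 for Cdc25b from PD15 to PD16. Some other uncalled changes kept their sign but moved in size. From PD14 to PD15 they were 0.121 to 0.307 for Wee2 and 0.072 to 0.156 for Adcy9. From PD14 to PD16 they were 0.103 to 0.237 for Gpr3, -0.135 to -0.016 for Cdc25b and -0.085 to -0.04 for Prkar1a. The cause of these dependences was not tested.

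The deviations of libraries from their day mean had correlations of -0.214 to 0.159 between libraries of the same replicate number. Between libraries of different numbers on different days they were -0.196 to 0.211. The numbers were therefore not taken to pair the samples, although these ranges alone do not exclude a pairing. With the replicate number as a block, 24 genes were called between PD15 and PD14, 227 between PD16 and PD14 and 56 between PD16 and PD15, no other pathway gene was called (0), and the F test for Adcy9 gave an adjusted p of 0.0633. The call of Adcy9 between PD16 and PD14 was made with the block (adjusted p = 0.0426). Depth limits Gpr12, with 17 fragments in all.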
